A study of Mus musculus with 6 samples.

Results

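The TSC22 domain family consists of 4 mouse genes, Tsc22d1, Tsc22d2, Tsc22d3 and Tsc22d4, and was followed here in liver RNA from control and socially isolated mice. These are 4 of 18193 genes named by the platform annotation. Its members on the array were all probe sets annotated to exactly 1 of these 4 symbols. There were 15 such probe sets among 45037, with 7 for Tsc22d1, 2 for Tsc22d2, 4 for Tsc22d3 and 2 for Tsc22d4. The family was selected on the isolated and control signals themselves, because a Tsc22d1 probe set was already known to be among the largest increases in isolated mice. Its values in that contrast are therefore given as a description, and no exact p-value is printed for any member. Calls and counts of members at a p threshold are likewise description only.

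Livers of male BALB/c mice aged 10 weeks were profiled on Affymetrix mouse genome expression arrays, with 3 arrays from control mice and 3 from mice exposed to isolation stress for 30 days. The mice arrived at 4 weeks of age, were kept 5 per cage and acclimatised for 10 days, after which the isolated animals lived 1 per cage with less bedding than the controls. The labels name no transgene, deletion or drug in either group, and food and water were freely available. Whether every array came from its own mouse is not stated by the labels, so part of the spread between arrays may be technical.

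TSC22 domain proteins share a conserved TSC box next to a leucine zipper, through which they form dimers. Tsc22d1, first described as a transcript stimulated by transforming growth factor beta, encodes long and short proteins from separate start sites. Tsc22d3 encodes GILZ, the glucocorticoid-induced leucine zipper, which binds and restrains NF-kappaB and AP-1 and is also a target of FOXO factors. Tsc22d4 is known in liver as a regulator of triglyceride release and insulin sensitivity. Long family members bind the pseudokinase NRBP1 and act with WNK kinases in the response of cells to osmotic stress.

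Tsc22d3 is named for its induction by glucocorticoids, so the sequences upstream of the annotated starts were searched for the site of the glucocorticoid receptor. RefSeq windows of 250 bases before a start (build GRCm38.p6) were at hand for 5 starts of Tsc22d1 and 3 of Tsc22d3. The palindrome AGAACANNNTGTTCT, searched on both strands, was in 0 of these 8 windows and in 0.00913% of all 32851 windows. Its single arm AGAACA, which lies within the palindrome, was in 2 of the 8 and in 16.1% of all windows. The FOXO site GTAAACA was in 0 of the 8 and in 3.17% of all. The SMAD palindrome GTCTAGAC was in 0 of the 8 and in 0.167% of all. The absence of a match says only that these letters are not in these windows. The 2 windows that hold the arm are shown because they set the genes compared most closely here side by side, with the arm in capitals.
Tsc22d1, chr14:76503976-76504225, plus strand: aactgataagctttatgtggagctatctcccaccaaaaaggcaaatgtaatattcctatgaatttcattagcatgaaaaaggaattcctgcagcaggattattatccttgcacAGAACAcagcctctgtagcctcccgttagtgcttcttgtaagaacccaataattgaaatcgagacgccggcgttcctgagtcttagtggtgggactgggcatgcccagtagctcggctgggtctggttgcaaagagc
Tsc22d3, chrX:140600523-140600772, minus strand: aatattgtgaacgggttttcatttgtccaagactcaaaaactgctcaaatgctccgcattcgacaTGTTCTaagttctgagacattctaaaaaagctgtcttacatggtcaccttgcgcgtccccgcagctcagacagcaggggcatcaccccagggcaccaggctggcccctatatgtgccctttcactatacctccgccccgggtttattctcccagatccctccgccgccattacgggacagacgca
In Tsc22d1 the arm runs from base 137 to base 132 before the start and reads forward. In Tsc22d3 it runs from base 185 to base 180 before the start and is on the opposite strand, so it reads TGTTCT here.

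The values are MAS5 signals, a linear brightness per probe set. Median signals per array ran from 18.4 to 22.1, and the 3′ to 5′ ratio of the Gapdh control probe sets, a measure of RNA integrity, ran from 0.692 to 0.719 on control arrays and from 0.689 to 0.695 on isolated arrays. The same ratio for actin ran from 2.14 to 2.32 on control arrays and from 1.99 to 2.35 on isolated arrays. Signals were analysed as log2(signal + 2). A log2 change is the mean of the isolated arrays minus the mean of the controls on that scale, and a fold is 2 to the power of its size. A probe set was tested if its mean log2 value was in the upper 50% (a floor of 4.32, or a signal of 18), and was called at a limma adjusted p under 0.05 over all 22519 tested probe sets. Of the 15 family probe sets, 10 passed this filter. The member just above the floor was Tsc22d4 probe set 1448412_a_at, with a mean log2 value of 5.7, and the one just below it was Tsc22d4 probe set 1430299_at, with 4.16.

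Isolated livers had higher Tsc22d1 signal on 3 of its 4 tested probe sets, by 3.62-fold to 3.81-fold, while the fourth changed less. A Tsc22d2 probe set was lower by 2.09-fold. Of the 4 tested probe sets of Tsc22d3 and Tsc22d4, 0 were called by limma, and 1 had an unadjusted p under 0.05. Over the family, 3 of 10 tested probe sets were called higher and 1 lower, against 0.773% called higher and 0.857% called lower among all tested probe sets. Because this contrast chose the family, nothing is read from that difference. The median log2 change of the 10 was 0.43, and that of all tested probe sets was 0.0352. In liver RNA, a change in the RNA of each cell and a change in the number of cells of a type cannot be told apart.

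**Figure D1:**
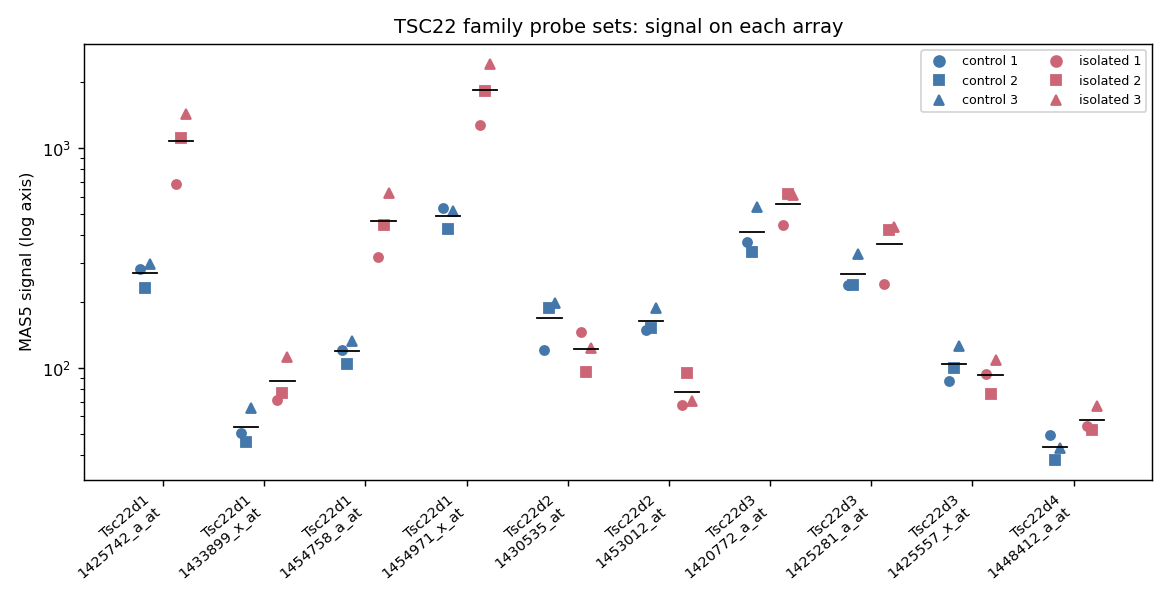
MAS5 signal (log axis) of the 10 tested TSC22 family probe sets on each of the 6 arrays, blue for control and red for isolated, with symbols for replicates 1 to 3 and bars for group means. The isolated arrays lie above every control for the 4 Tsc22d1 probe sets and for Tsc22d4, and below every control for Tsc22d2 probe set 1453012_at; levels are not comparable between probe sets.

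Tsc22d1 was brightest on probe set 1454971_x_at. It read 533, 426 and 519 on control arrays 1, 2 and 3 and 1280, 1820 and 2420 on isolated arrays 1, 2 and 3. Every isolated array lay above every control, and isolated replicate 3 was the highest. The mean signal was 493 ± 58.1 in controls and 1840 ± 567 in isolated mice (SD, n = 3 per group), a log2 change of 1.86 ± 0.19 (SE) or 3.62-fold. By size of increase it ranked at place 22 among the tested probe sets.

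Probe set 1425742_a_at of Tsc22d1 gave the same picture. It read 282, 231 and 297 on control arrays and 687, 1110 and 1430 on isolated arrays, again with no overlap. Its log2 change was 1.93 ± 0.21 (SE), or 3.81-fold, the 16th largest increase of all tested probe sets. Probe set 1454758_a_at read 120, 104 and 133 on control arrays and 320, 447 and 624 on isolated arrays, a log2 change of 1.90 ± 0.21 (SE) or 3.73-fold. These 3 probe sets also agreed array by array. Relative to the control mean, they stood 1.35 to 1.42 log2 units higher on isolated replicate 1, 1.89 to 2.04 on replicate 2 and 2.3 to 2.4 on replicate 3. The SD over the isolated arrays thus reflects arrays that differ in the same way on each of the 3 probe sets. Values were not rescaled between arrays in the main fit. The median log2 value of all tested probe sets was 6.36, 6.27 and 6.52 on isolated replicates 1, 2 and 3. The part of this array-wide brightness in the order of the isolated arrays was not tested.

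The fourth tested Tsc22d1 probe set, 1433899_x_at, changed by much less. It read 50.7, 45.7 and 65.6 on control arrays and 71.4, 76.8 and 112 on isolated arrays. The groups did not overlap, yet the gap between the highest control and the lowest isolated array was small, and the log2 change of 0.65 ± 0.23 (SE), or 1.57-fold, was not called. The platform annotation gives this probe set the same source sequence, AU016382, as 1454758_a_at, which rose 3.73-fold. Its _x_ suffix is Affymetrix's mark for probes that may also bind other transcripts, and the suffix is shared by the brightest Tsc22d1 probe set.

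The smaller change on 1433899_x_at was seen on each isolated array. The log2 difference 1433899_x_at minus 1454758_a_at, set to a control mean of 0, was -0.10, -0.03 and 0.12 on control arrays and -1.01, -1.39 and -1.34 on isolated arrays. The change on 1433899_x_at was therefore smaller by a log2 difference of -1.25 ± 0.14 (SE over arrays), and the groups did not overlap. This mean restates the gap between both log2 changes given above. By contrast, 1454758_a_at minus 1454971_x_at ran from -0.10 to 0.08 on control arrays and from 0.01 to 0.08 on isolated arrays, a difference in change of 0.04 ± 0.06 (SE over arrays). An exact permutation test of 3 against 3 arrays cannot give a p under 0.1, and these differences come from the contrast that chose the family, so they were not tested.

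**Figure D2:**
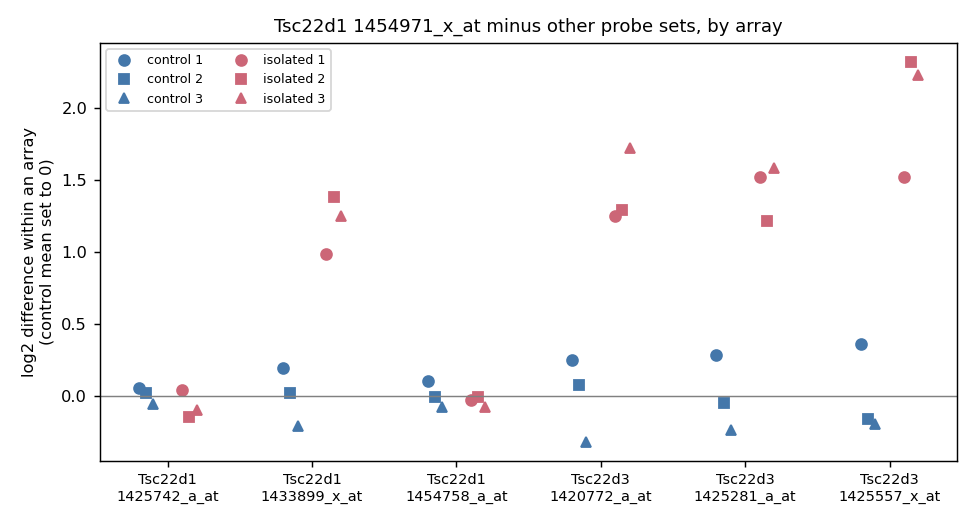
Within-array log2 difference between Tsc22d1 probe set 1454971_x_at and the other tested probe sets of Tsc22d1 and Tsc22d3, with the control mean set to 0; blue symbols are control arrays and red symbols isolated arrays. Red and blue overlap for 1425742_a_at and 1454758_a_at and lie apart for 1433899_x_at and for the 3 Tsc22d3 probe sets.

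The 3 remaining Tsc22d1 probe sets were dim and were not tested. Probe set 1435952_at ran from 3.41 to 11.7 on control arrays and from 2.63 to 14.9 on isolated arrays, and 1439111_at from 3.85 to 4.6 and from 1.53 to 4.07. Probe set 1456132_x_at ran from 0.756 to 8.44 on control arrays and from 5.84 to 21.5 on isolated arrays. The groups overlapped on all 3, and MAS5 signals this low are noisy.

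Tsc22d3, the glucocorticoid-induced member, did not follow Tsc22d1 in size. Its brightest probe set, 1420772_a_at, read 374, 338 and 539 on control arrays and 448, 619 and 609 on isolated arrays. Control replicate 3 lay above isolated replicate 1, so the groups overlapped. The log2 change was 0.43 ± 0.19 (SE), or 1.35-fold, and was not called.

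Probe set 1425281_a_at of Tsc22d3 read 237, 238 and 330 on control arrays and 241, 425 and 437 on isolated arrays, a log2 change of 0.42 ± 0.22 (SE). Isolated replicates 2 and 3 were the 2 highest arrays here, and isolated replicate 1 lay within the control range. With isolated replicates 2 and 3 left out together, the change on this probe set turned to -0.137. Probe set 1425557_x_at read 86.7, 99.9 and 125 on control arrays and 93.2, 75.6 and 108 on isolated arrays, a log2 change of -0.17 ± 0.21 (SE). Its direction was opposite to the other 2, and its groups overlapped. The fourth probe set, 1444365_at, ran from 2.86 to 19.4 on control arrays and from 4.07 to 17 on isolated arrays, and was too dim to be tested.

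Set against each other within arrays, Tsc22d1 and Tsc22d3 were compared by their log2 difference. The log2 difference of Tsc22d1 probe set 1454971_x_at minus Tsc22d3 probe set 1420772_a_at was 0.25, 0.07 and -0.32 in controls, around a mean of 0, and 1.25, 1.29 and 1.72 in isolated mice. The difference in change was 1.42 ± 0.23 (SE over arrays) here, 1.44 ± 0.19 against 1425281_a_at and 2.02 ± 0.31 against 1425557_x_at. For the less responsive Tsc22d1 probe set 1433899_x_at, the difference in change was 0.22 ± 0.17 (SE over arrays) against 1420772_a_at and 0.23 ± 0.22 against 1425281_a_at, and the groups overlapped in both. Against 1425557_x_at it was 0.82 ± 0.17, with all isolated arrays above all controls. These differences were not tested, for the reasons given above.

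Tsc22d2, a less studied member, was lower on 1453012_at. This probe set read 149, 152 and 187 on control arrays and 67.4, 94.2 and 70.7 on isolated arrays. All isolated arrays lay below all controls, and the log2 change was -1.06 ± 0.20 (SE), 2.09-fold lower and called. The call was lost without control replicate 3, where the log2 change was -0.956, and in a fit with no intensity trend in the variance model, where it was again -1.061. The other Tsc22d2 probe set, 1430535_at, read 121, 187 and 198 on control arrays and 145, 95.9 and 123 on isolated arrays, with overlapping groups. Its log2 change of -0.46 ± 0.22 (SE) was not called. Within arrays, the difference in change between these 2 probe sets was 0.60 ± 0.36 (SE over arrays), with overlapping groups.

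Tsc22d4, the member linked to hepatic lipid handling, read 49.4, 38.1 and 43.1 on control arrays and 54.5, 52.1 and 67.3 on isolated arrays on 1448412_a_at. The isolated arrays lay above the controls, but the log2 change of 0.40 ± 0.24 (SE), or 1.32-fold, was not called. The dimmer 1430299_at ran from 9.96 to 25.7 on control arrays and from 4.81 to 27.8 on isolated arrays. In all, the isolated arrays lay above all controls on 5 of the 10 tested family probe sets and below them on 1, where 9.62% and 5.79% of all tested probe sets did.

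**Figure D3:**
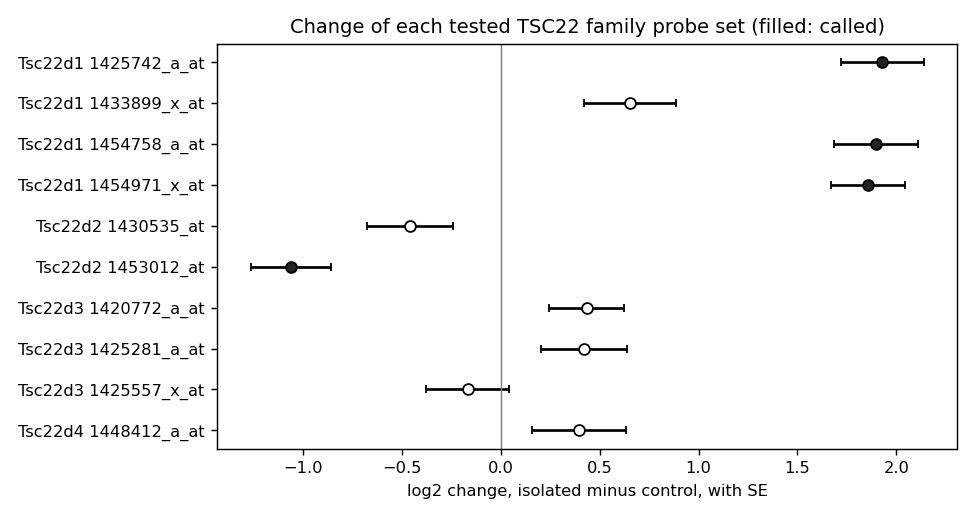
Log2 change, isolated minus control, with its limma SE (bars) for each of the 10 tested TSC22 family probe sets, filled where called. The 3 filled Tsc22d1 points lie between 1.86 and 1.93, 1433899_x_at lies at 0.65, and 1453012_at of Tsc22d2 lies at -1.06.

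The tissue label was checked by marker genes. All 8 hepatocyte markers were tested by limma, 0 were called and 1 had an unadjusted p under 0.05, and their summed signal ran from 71900 to 76400 on control arrays and from 68900 to 74800 on isolated arrays. Alb read 10200 to 10900 on control arrays and 9950 to 10900 on isolated arrays. Among markers of other cells, the summed signals of Kupffer cell, sinusoidal endothelial, stellate, bile duct and erythroid lists overlapped between groups. Most of the stellate sum came from Dcn and Reln. Of the 6 stellate markers, 0 were called by limma and 2 had an unadjusted p under 0.05. On Lrat, 1 of these 2, the isolated arrays read 105 to 136 and the controls 71.3 to 103. The erythroid list had 2 of its 5 genes on the array, 1 of them under the floor. The lymphocyte list, with 5 of its 6 genes under the floor, summed to 139 to 154 on control arrays and 160 to 184 on isolated arrays.

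Some fat tissue markers were high on isolated replicates 2 and 3, the arrays on which Tsc22d1 and 2 of the Tsc22d3 probe sets were also highest. Of 8 adipocyte markers, 6 were matched, 4 of them under the floor and 0 called by limma (1 at an unadjusted p under 0.05), and their summed signal was 203 to 295 on control arrays and 284 to 544 on isolated arrays. Adipoq, the adipocyte hormone adiponectin, read 4.38 to 15.6 on control arrays and 3.78, 59.5 and 54.8 on isolated arrays 1, 2 and 3. Retn, which encodes resistin, read 2.39 to 3.88 on control arrays and 2.65, 20.0 and 42.2 on isolated arrays. Both were under the floor and were not tested. Fabp4, a fatty acid carrier of adipocytes, read 117, 202 and 157 on control arrays and 203, 300 and 404 on isolated arrays. Its limma adjusted p of 0.0578 missed the threshold, although every isolated array, replicate 1 included, was above every control. The other 3 matched markers did not follow this pattern. Lipe, a lipase of stored fat, read 61.7 to 66.2 on control arrays and 61.3, 76.7 and 38.6 on isolated arrays. Cidea, a lipid droplet protein, read 3.58 to 18.3 on control arrays and 12.3, 14.6 and 1.76 on isolated arrays. Lep, another fat hormone gene, stayed between 0.775 and 3.3 on the 6 arrays. On isolated replicate 1, where Adipoq was at 3.78, Retn at 2.65 and Fabp4 at 203, Tsc22d1 probe set 1454971_x_at was 1.39 log2 units above the control mean. The part of these markers in the Tsc22d1 and Tsc22d3 values was not tested.

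**Figure D4:**
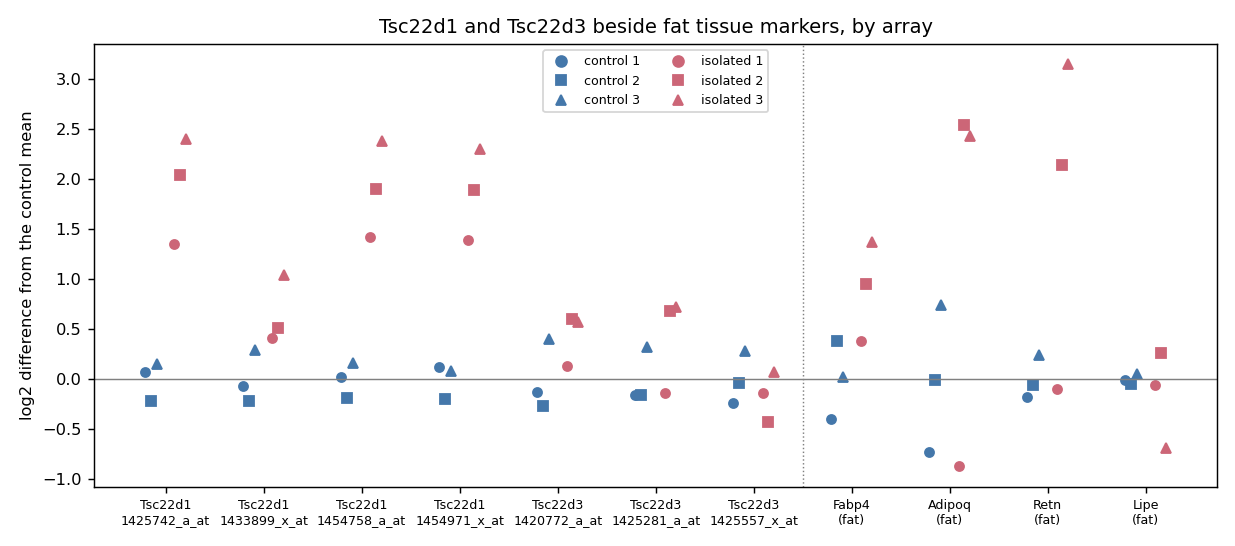
Log2 difference of each array from the control mean for the tested Tsc22d1 and Tsc22d3 probe sets and, right of the dotted line, 4 fat tissue markers; blue is control and red isolated. Isolated replicate 1 (red circle) is at 1.39 on Tsc22d1 probe set 1454971_x_at and at -0.87 on Adipoq, whereas replicates 2 and 3 are at 2.54 and 2.43 on Adipoq.

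The genes nearest to Tsc22d1 in profile were found by the root mean square difference, over the 6 arrays, between log2 values set to a control mean of 0. Against 1454971_x_at, the nearest was Mid1ip1, an activator of acetyl-CoA carboxylase, at 0.27 log2 units. Then came Klhl25, an adaptor of a ubiquitin ligase, at 0.271, and the aryl hydrocarbon receptor gene Ahr at 0.306. Tmem39a followed at 0.309, and Cyp26a1, the enzyme that breaks down retinoic acid, at 0.315. The other 2 strongly raised Tsc22d1 probe sets were nearer than any of these genes, at 0.0633 and 0.0827. The remaining tested Tsc22d1 probe set, 1433899_x_at, was far off at 0.868. The nearest Tsc22d3 probe sets were at 1.03, and Tsc22d4 probe set 1448412_a_at was at 1.05.

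The levels of these neighbours show the same order of arrays only in part. Mid1ip1 stood 1.89, 2.2 and 2.05 log2 units above its control mean on isolated replicates 1, 2 and 3, so replicate 2 was its highest. Ahr stood at 1.38, 1.44 and 1.76, with replicate 3 the highest as for Tsc22d1. Klhl25 and Cyp26a1 were lowest on replicate 1, at 1.16 and 0.99, and near each other on replicates 2 and 3. With 1425742_a_at or 1454758_a_at in place of 1454971_x_at, 4 of the 5 genes were the same, and with 1433899_x_at 0 were. The first 2 lie close to 1454971_x_at in profile, so the neighbours they share add no separate evidence. With values set to the control mean, the distance largely follows the size of the change in the contrast that chose the family.

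Tsc22d3 was next set beside other glucocorticoid-responsive genes. Of 18 tested genes of that list, 6 were lower, 0 higher and 12 not called, where 0.847% of all tested genes were called lower and 0.901% higher. The list's median log2 change was -0.37, against 0.0522 over all tested genes. Called or not, 7 of the 18 had a change above 0 and 11 below 0. The largest decreases were those of Igfbp1, a binding protein of insulin-like growth factors, and of the metallothioneins Mt2 and Mt1. The other 3 were Angptl4, Klf9 and Fkbp5, a co-chaperone of the glucocorticoid receptor. Fkbp5 read 531, 467 and 586 on control arrays and 310, 262 and 324 on isolated arrays, 1.76-fold lower (log2 change -0.82 ± 0.17 SE, limma adjusted p 0.0112). Beside it, the 3 tested Tsc22d3 probe sets changed by 0.43, 0.42 and -0.17. The Fkbp5 call was lost without control replicate 3 (log2 change -0.74, limma adjusted p 0.062) and with no intensity trend (0.167). Without control replicate 3, 4 of the list's tested genes were called lower and 1 higher. With no intensity trend 1 was called lower, and with a robust trend 2 were called lower and 1 higher. Likewise, 1 was called higher with array weights, with the replicate number as a block, at a threshold of 0.1 and without isolated replicate 1.

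The metallothionein values rested on an uneven control group. Mt2 read 60.8, 1350 and 942 on control arrays and 46.3, 44.6 and 78.3 on isolated arrays, so control replicate 1 lay within the isolated range. The log2 change, -2.93 ± 0.66 (SE) over all arrays (limma adjusted p 0.0224), was -4.32 without control replicate 1 and -2.105 without control replicate 2. The call was lost in 7 of 19 alternatives. The limma adjusted p was 0.19 without control replicate 3, 0.171 with no filter, 0.322 with no trend and 0.574 with a robust trend. It was 0.109 with median centring, 0.128 with quantile normalization and 0.114 with trimmed mean scaling. Mt1 likewise read 322 in control replicate 1 against 2320 and 2020 in the others, and its log2 change was -2.79 over all arrays and -3.706 without that array. The Mt1 call was lost with no trend (limma adjusted p 0.193) and with a robust trend (0.396).

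FOXO factors are transcription factors held inactive by insulin, and Tsc22d3 is among their targets. Of 18 tested genes of the FOXO list, 4 fell, 3 rose and 11 were not called, with a median log2 change of -0.23. Over all tested genes 0.847% were called lower and 0.901% higher, and the median was 0.0522. The 4 that fell were Pdk4, Igfbp1, Txnip and Ccng2, an atypical cyclin. Ccng2 read 274, 275 and 274 on control arrays and 135, 59.6 and 102 on isolated arrays, a 2.88-fold decrease (limma adjusted p 0.000693). The 3 that rose were Cited2, a regulator of CBP and p300, Bcl6, a transcriptional repressor, and Gadd45a, a stress-induced growth arrest gene. They are named for completeness, after their values were seen.

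Cited2 read 96.4, 79.3 and 111 on control arrays and 212, 187 and 241 on isolated arrays, a 2.22-fold increase with a limma adjusted p of 0.00202. Bcl6 read 115, 135 and 125 on control arrays and 162, 333 and 462 on isolated arrays, so that its isolated arrays fell in the same order as those of Tsc22d1. Its log2 change of 1.22 ± 0.26 (SE) had a limma adjusted p of 0.0172. The call was lost in 10 of 19 alternatives. The limma adjusted p was 0.0615 with median centring, 0.0761 with quantile normalization, 0.0653 with trimmed mean scaling, 0.085 with array weights, 0.0948 with no filter, 0.208 with a robust trend and 0.246 with no trend. It was 0.0836 without control replicate 3 and 0.0936 without isolated replicate 3, and the change was 0.373 with isolated replicates 2 and 3 left out. Gadd45a read 22.6 to 27.1 on control arrays and 45.9 to 61.1 on isolated arrays, with a limma adjusted p of 0.0405, and was not called in 5 of the 6 fits that left out 1 array. The number of FOXO list genes called higher was 1 with no filter, without control replicate 3 and without isolated replicate 3. It was 0 with no intensity trend, and the number called lower was 2 with a robust trend.

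**Figure D5:**
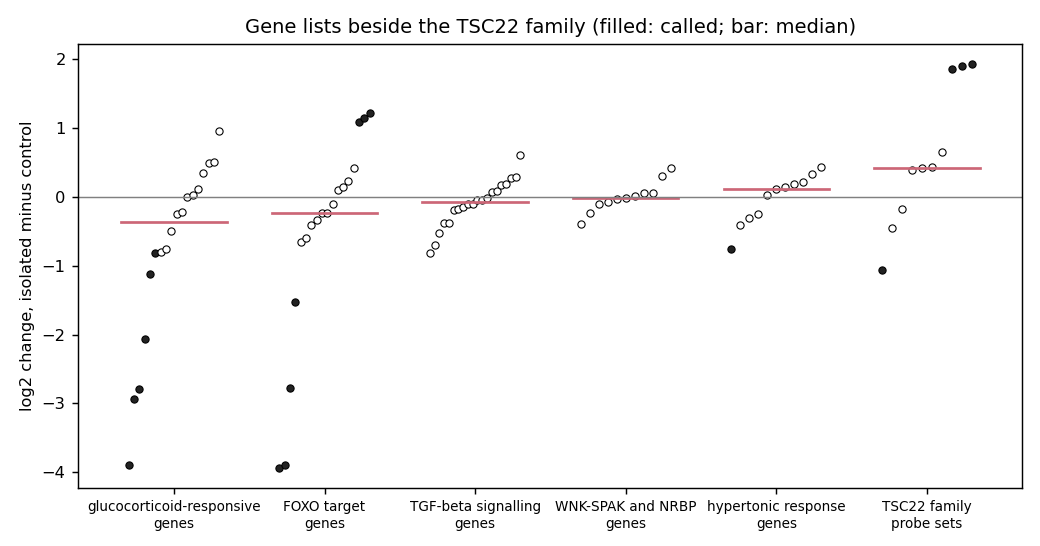
Log2 change, isolated minus control, of each tested gene in 5 lists and of the 10 tested TSC22 family probe sets, filled where called, with red bars at list medians. The filled points of the glucocorticoid list all lie below 0, those of the FOXO list lie on both sides, and those of the family are 3 Tsc22d1 probe sets above 0 and 1 Tsc22d2 probe set below.

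The remaining lists are described by their counts, beside 0.901% of all tested genes called higher and 0.847% lower. Tsc22d1 was named for its response to transforming growth factor beta, and of 20 tested genes of that pathway 0 were called by limma and 4 had an unadjusted p under 0.05, with a median log2 change of -0.07. The member with the smallest p was Tgif1, a corepressor of SMAD proteins, which read 78.6 to 92.5 in the control group and at most 55.2 in the isolated group. Its log2 change was -0.81 ± 0.22 (SE), and its limma adjusted p of 0.0675 missed the threshold, although the groups did not overlap. Under median centring, quantile normalization or trimmed mean scaling, and at a threshold of 0.1, 1 gene of the list was called lower.

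Of 11 tested genes of the WNK kinase pathway and its NRBP partners, 0 were called by limma and 1 had an unadjusted p under 0.05, and the median log2 change was -0.02. The smallest p was that of Slc12a7, a potassium chloride cotransporter, which read 244, 159 and 217 on control arrays and 297, 239 and 289 on isolated arrays (limma adjusted p 0.397). Nrbp1, the partner of long TSC22 proteins, read 123, 132 and 117 on control arrays and 104, 90.4 and 122 on isolated arrays (limma adjusted p 0.742). Of 11 tested genes of the hypertonic response, 1 fell and 0 rose, with a median log2 change of 0.11. This was Slc38a2, an amino acid transporter, which read 1840, 1710 and 2030 on control arrays and 1030, 898 and 1440 on isolated arrays. The log2 change of -0.76 ± 0.16 (SE) passed at a limma adjusted p of 0.0163. The call was lost without control replicate 3 (limma adjusted p 0.0899), with no filter (0.0846) and with no intensity trend (0.25).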

How the data were processed

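The deposited intensity values came from MAS5, per the submitters' processing notes, as 1 linear signal per probe set and array; no label names the scaling target or the detection calls. Control probe sets (64 of 45101) were set apart. After adding a pseudocount of 2, log2 values of the upper 50% by mean were fitted with limma 3.58.1 in R 4.3.3 (2 groups, eBayes with an intensity trend, two-sided, Benjamini-Hochberg). In the moderated variances the trend counted for 16.1 degrees of freedom and the arrays for 4. Genes were named through the platform annotation. For lists, each gene was represented by its brightest tested probe set with 1 symbol (10986 genes). Upstream sequences came from RefSeq (GRCm38.p6). Members, 5 lists and 8 marker lists were chosen with earlier results of these data known. By rule, named genes were all members, the 5 nearest profiles, and fat and liver markers. Each list also gave up to 3 called genes by size of change, or else the one with the smallest p. Outside this rule, Angptl4, Klf9, Fkbp5, Ccng2, Cited2, Bcl6, Gadd45a and Nrbp1 were named as well. Alternatives covered pseudocount, filter, normalization, variance model, array weights, replicate block, threshold and arrays left out; scaling to 1 trimmed mean was added after seeing the data. Precision is limited by having 3 arrays in each group.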

Additional observations from a re-analysis of the deposited data

How the results depend on the processing

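The 3 Tsc22d1 probe sets called higher were 3 under every alternative that kept more than 1 array in each group. Tsc22d1 probe set 1433899_x_at was called under none of those in which it was tested. With the filter at the upper 25% it was not tested. These fits use the contrast that chose the family, so stable calls add no separate support. The count of family probe sets called lower, 1, was 0 with no intensity trend and ran from 0 to 1 with 1 array left out. Over all probe sets, the 174 higher calls were 81 with no filter, 15 with no intensity trend, 303 at a threshold of 0.1 and 90 without isolated replicates 2 and 3; the 193 lower calls were 101 with no filter and 16 with no trend. With 1 array left out, higher calls ran from 97 to 200 and lower calls from 82 to 246. Tsc22d3 probe set 1425281_a_at turned to -0.137 without isolated replicates 2 and 3; the cause was not tested. With the replicate number as a block, 265 probe sets were called higher. Deviations of same-numbered arrays were not correlated over probe sets (0.01, 0.04 and 0). Such a correlation cannot show a brightness shift shared by all probe sets of an array. Replicate 3 had the highest median log2 value of tested probe sets in both groups, 6.47 in controls and 6.52 in isolated mice. Whether same-numbered arrays share an effect is therefore not settled. The labels do not say whether the numbers pair the samples. No family call changed under the block. No depth is known for arrays; signals under the floor of 18 limit what the 5 untested family probe sets can show.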
